A study of Mus musculus with 2 samples.

Results

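Hox genes are the homeobox transcription factor genes of the HoxA, HoxB, HoxC and HoxD clusters. They were taken as all non-control probes, present on both arrays, whose gene name in the scanner files is Hoxa, Hoxb, Hoxc or Hoxd followed by a number. 1 gene of the HoxA cluster is not reported here. This gave 37 genes of 19505 named genes, read by 47 of 41174 probes, with 10 genes in HoxA, 10 in HoxB, 8 in HoxC and 9 in HoxD. The measured values played no part in this choice.

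The arrays compared fetal thymic stromal cells of C57BL/6 mice held for 72 h in RTOC (reaggregation thymus organ culture), in which dispersed cells are packed together again on a membrane, with cells held for the same time in 2D culture on a dish. On 1 array the cells came from E14.5 fetuses, whose thymus lobes spent 8 days in organ culture before the cells were dispersed. On the other array they came from E15.5 fetuses, with 9 days of organ culture. All lobes had received 1.35 mM deoxyguanosine, which removes haematopoietic cells, and no genetic change is named in the labels for any sample. RTOC RNA was labelled with Cy5 and 2D RNA with Cy3 on both arrays, so dye and culture cannot be told apart. The 2 arrays were independent experiments and served as 2 replicates of a single comparison. They also differed in fetal stage and in days of organ culture, and these cannot be told apart from the array.

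Hox genes lie side by side in their clusters and are numbered by paralogue group, so that genes with the same number in different clusters descend from a common ancestor. In the embryo, low-numbered genes are switched on earlier and nearer the head than high-numbered genes, and the resulting combination gives cells along the body axis, neural crest and pharyngeal arches included, their positional identity. Their proteins bind DNA through the homeodomain, usually together with TALE cofactors of the Pbx and Meis families. Polycomb proteins keep silent Hox genes off, Trithorax proteins keep active ones on, and retinoic acid is a classical inducer of the low-numbered genes. The thymus forms from pharyngeal endoderm with surrounding neural crest mesenchyme.

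Markers of several cell types differed between the 2 cultures. The counts below stand beside 15.4% of all tested genes called higher and 12.7% called lower in RTOC (limma, adjusted p under 0.05). Of 10 thymic epithelial markers 6 were higher and 1 lower in RTOC, and their summed normalized intensity was 288500 and 591300 in 2D culture and 1065000 and 1072000 in RTOC. The defining marker Epcam was lower in RTOC on both arrays (mean log2 ratio -0.70) but did not pass the threshold. Krt8 and Krt18, with means of 0.28 and 0.69, did not pass either. Of 6 endothelial markers 5 were higher (2 with normexp and loess), with sums of 571.8 and 1484 in 2D culture and 6449 and 9987 in RTOC, and for the defining marker Cdh5 neither 2D channel was well above background. All 5 smooth muscle markers were tested and 4 were lower, the defining marker Acta2 among them (mean log2 ratio -3.00). The sums of the 5 fell from 532900 and 634700 to 40460 and 67100. Mesenchymal markers moved both ways, 3 higher and 4 lower of 10 (3 and 2 with normexp and loess), with Pdgfra higher (mean log2 ratio 2.84), and their sums were 334900 and 451800 in 2D culture and 276400 and 293500 in RTOC. Of 5 haematopoietic markers tested 3 were higher, Ptprc among them (1.88), with sums of 7191 and 7239 in 2D culture and 17390 and 21910 in RTOC. Of 3 neural and glial markers tested 1 was higher and 1 lower (0 and 1 with normexp and loess, 1 and 1 at an unadjusted p under 0.05 in limma), with Sox10 at a mean log2 ratio of 0.24, and sums of 2501 and 2646 in 2D culture and 1182 and 1337 in RTOC. In RNA of mixed cells, fewer cells of a type and less RNA per cell cannot be told apart, and the part of cell composition in the Hox values below was not tested.

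Low-numbered Hox genes were detected far more often than high-numbered ones. A gene was taken as detected in a channel (1 culture on 1 array) where the scanner software marked any of its probes as well above background. Of the 37 Hox genes, 19 (51.4%) were detected in at least 1 of the 4 channels, against 74.7% of all named genes. In paralogue groups 1 to 8, 15 of 22 genes were detected in at least 1 channel and 8 in all 4. In paralogue groups 9 to 13, 4 of 15 genes were detected in at least 1 channel and only Hoxa9 in all 4. All genes of groups 2 and 4 (Hoxa2 and Hoxb2, and Hoxa4, Hoxb4, Hoxc4 and Hoxd4) were detected in every channel. No gene of groups 10 or 11 was detected in any channel.

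By cluster, HoxA and HoxB were the best represented. At least 1 channel detected 7 of 10 HoxA genes, 7 of 10 HoxB genes, 4 of 9 HoxD genes and 1 of 8 HoxC genes, the last being Hoxc4. Among the genes detected in all 4 channels were Hoxa2, Hoxa4, Hoxa9, Hoxb2, Hoxb4, Hoxb6, Hoxc4 and Hoxd4. The 18 genes at background in every channel were Hoxa5, Hoxa10, Hoxa11, Hoxb1, Hoxb8, Hoxb13, Hoxc5, Hoxc6, Hoxc8, Hoxc9, Hoxc10, Hoxc12, Hoxc13, Hoxd1, Hoxd9, Hoxd10, Hoxd11 and Hoxd13. Detection depends on the probe as well as on the RNA, so these counts are no ranking of expression between genes.

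**Figure D1:**
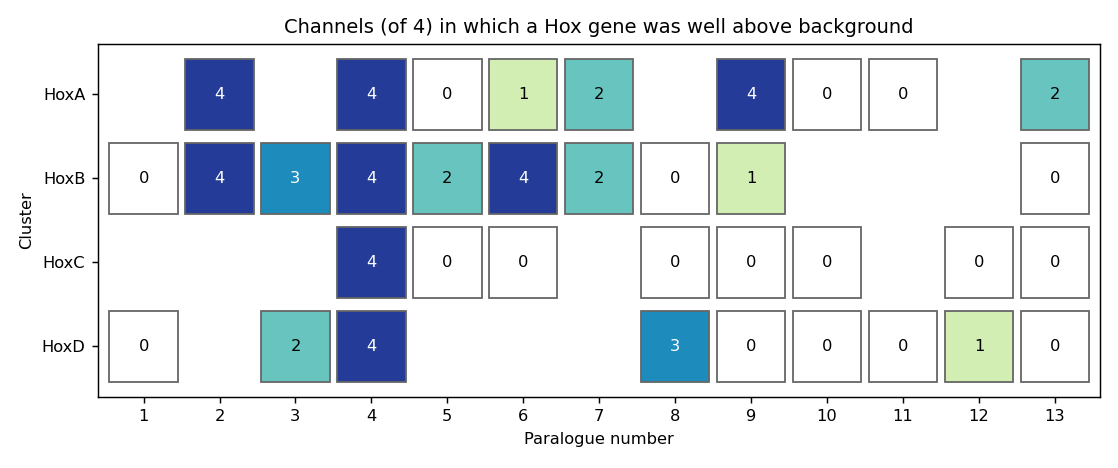
Number of channels, of 4, in which each Hox gene was well above background, by cluster (rows) and paralogue number (columns). Darker squares stand for more channels, and positions without a square are not shown here or do not exist. Squares at 4 lie in groups 2 to 6 with the single exception of Hoxa9.

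More Hox genes were well above background on both arrays in RTOC than in 2D culture. The counts were 14 genes (37.8%) in RTOC and 9 genes (24.3%) in 2D culture, against 67.6% and 63.5% of all named genes. The 9 genes of 2D culture were those detected in all 4 channels. Hoxa7, Hoxb5 and Hoxb7 were detected in RTOC on both arrays and in 2D culture on neither, while Hoxb3 and Hoxd8 lacked only the E15.5 2D channel. By single channel, 13 genes were detected in E14.5 2D culture, 10 in E15.5 2D culture, 15 in E14.5 RTOC and 17 in E15.5 RTOC. The order of the cultures depends on the detection call, because with the software's looser call, a signal positive and significant against background, the counts were 19 genes in RTOC and 22 in 2D culture.

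The ratio of RTOC to 2D culture could be tested for 14 Hox genes, those with a probe well above background in at least 1 channel on each array. The other 23 genes got no test. A log2 ratio above 0 means a higher signal in RTOC, and it was tested with limma over all 23692 tested probes, with p-values adjusted by Benjamini-Hochberg and called below 0.05. Hoxa2, Hoxa7 and Hoxb5 were higher in RTOC, and Hoxa9 and Hoxb4 were lower. These are 3 and 2 of the 14 genes, beside 15.4% of all 13512 genes tested that were called higher and 12.7% that were called lower, so the Hox counts are near the background. All 14 genes had the same sign on both arrays, 8 of them higher and 6 lower. Over all tested genes, 40.1% were higher on both arrays, 39.5% lower on both, and the rest had opposite signs. The median log2 ratio was 0.31 over the 14 Hox genes and 0.00 over all tested genes. Hoxa7, Hoxb5 and Hoxb7 entered the test through their RTOC channels alone, so the filter favoured a positive ratio for them. Their sign is not read as a result. Over the 9 genes well above background in every channel the median turned to -0.55, with 1 gene called higher and 2 lower.

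**Figure D2:**
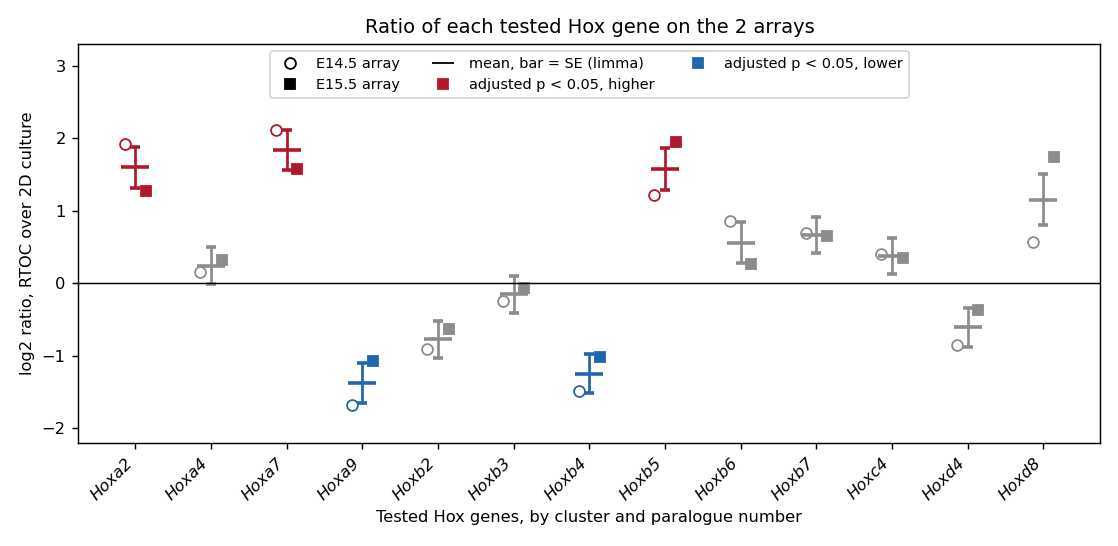
log2 ratio of RTOC over 2D culture (vertical axis) for 13 of the 14 tested Hox genes in cluster order, with the E14.5 array as open circles, the E15.5 array as squares, and the mean with its SE from limma as bars. Red and blue mark the 3 genes that passed the threshold as higher and the 2 that passed as lower. Both arrays lie on the same side of 0 for every gene shown.

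Hoxa2, which specifies the identity of the second pharyngeal arch and represses bone formation there, rose in RTOC. Its normalized intensity was 393.3 (E14.5) and 581.4 (E15.5) in 2D culture and 1494 and 1406 in RTOC. Both RTOC values were above both 2D values, and all 4 channels were well above background. The log2 ratio was 1.93 at E14.5 and 1.27 at E15.5, a mean of 1.60 ± 0.46 (SD, n = 2; SE 0.29) or 3.03-fold, with an adjusted p of 0.0141 in limma. Among all tested genes, 848 others (6.28%) moved at least as far in the same direction on both arrays. For the other 4 called Hox genes this share lay between 5.08% and 6.65%. Its ratio was the only Hox ratio to pass the threshold with a background correction that models the local background (normexp) and loess, at 1.1 with an adjusted p of 0.0364.

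Hoxa7 and Hoxb5, genes of the trunk and of the vagal and cervical region respectively, were also called higher in RTOC, from a 2D signal that was not well above background on either array. They entered the test only through the RTOC channels, so the filter favoured this direction. The ratios against the 2D signal are given as a description. Hoxa7 had intensities of 67.5 and 71.0 in 2D culture and 290.5 and 211 in RTOC (E14.5 and E15.5). The groups did not overlap, and the RTOC values were the only ones marked as well above background. The mean log2 ratio was 1.84 ± 0.38 (SD, n = 2; SE 0.27) with an adjusted p of 0.00818 in limma. Hoxb5 had intensities of 77.3 and 75.6 in 2D culture and 179.3 and 290.6 in RTOC. Here too the groups did not overlap, with the E15.5 RTOC value the highest of the 4. The mean log2 ratio was 1.58 ± 0.52 (SD, n = 2; SE 0.29) with an adjusted p of 0.0160 in limma. After normexp, loess and scaling between arrays, RTOC was 1.27-fold higher for Hoxa7 and 1.29-fold higher for Hoxb5. These are estimates against each gene's own 2D value and give no lower bound of the difference. With normexp and loess neither gene passed the threshold, with mean log2 ratios of 0.35 and 0.37.

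The stretch before the transcription start is shown for Hoxa2 and Hoxa7 because their windows hold motifs of factors known to regulate Hox genes, Pbx with Hox and Meis for the first, Cdx for the second. Both are 250 bases from RefSeq on GRCm38.p6, on the minus strand of chromosome 6, with the motif letters in capitals.
Hoxa2 (chr6:52164832-52165081): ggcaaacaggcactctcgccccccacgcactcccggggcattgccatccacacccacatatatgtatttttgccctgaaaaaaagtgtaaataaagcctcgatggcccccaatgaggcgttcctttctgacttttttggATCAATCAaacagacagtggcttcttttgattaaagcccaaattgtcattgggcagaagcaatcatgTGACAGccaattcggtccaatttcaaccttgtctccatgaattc
Hoxa7 (chr6:52218574-52218823): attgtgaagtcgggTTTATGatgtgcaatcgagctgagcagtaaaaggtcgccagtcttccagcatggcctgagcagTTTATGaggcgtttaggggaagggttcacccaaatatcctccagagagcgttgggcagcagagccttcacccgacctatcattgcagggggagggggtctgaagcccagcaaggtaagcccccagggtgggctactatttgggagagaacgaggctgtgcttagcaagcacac

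Both strands were searched for TGATNNAT (Pbx with Hox), TGACAG (Meis) and TTTATG (Cdx). Hoxa2 held the Pbx with Hox motif 111 bases and the Meis motif 44 bases before the start, and Hoxa7 held the Cdx motif 236 and 173 bases before it. The windows of Hoxa9 and Hoxb4, on chromosomes 6 and 11, held none of the 3, and Hoxb5 was not among the promoters given. Over 32851 mouse promoters of the same length, 7.68% held the Pbx with Hox motif, 15.9% the Meis motif and 10.8% the Cdx motif. Of 23 promoters of 21 Hox genes, 4, 1 and 5 held them. These are matches of letters and nothing about binding was measured.

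Hoxa9 and Hoxb4, both known from haematopoietic progenitors besides their roles in axial patterning, fell in RTOC. Hoxa9 had intensities of 201.3 (E14.5) and 149.4 (E15.5) in 2D culture and 62.8 and 71.0 in RTOC. Both RTOC values were below both 2D values, and all 4 channels were well above background. The mean log2 ratio was -1.38 ± 0.43 (SD, n = 2; SE 0.28), 2.60-fold lower in RTOC, with an adjusted p of 0.0205 in limma. Hoxb4 had intensities of 196.6 and 91.6 in 2D culture and 70.4 and 45.4 in RTOC. Both RTOC values were below both 2D values, although the E15.5 2D value lay nearer to the E14.5 RTOC value than to the E14.5 2D value. All 4 channels were well above background. The mean log2 ratio was -1.25 ± 0.33 (SD, n = 2; SE 0.27), 2.37-fold lower in RTOC, with an adjusted p of 0.0238 in limma. When the 4 channels were treated as unpaired samples, Hoxb4 no longer passed (adjusted p = 0.119).

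The signals of both genes lay close to the local background. The mean signal minus background was 31.9 and 20.4 scanner units in 2D culture and 16.2 and 15.0 in RTOC for Hoxa9 (E14.5 and E15.5). It was 30.1 and 14.2 in 2D culture and 16.8 and 13.2 in RTOC for Hoxb4. With normexp and loess the log2 ratios were -0.27 and -0.19, and neither passed the threshold. Of the genes that were higher, Hoxa7 had 13.4 and 9.78 scanner units in 2D culture and 35.6 and 30.6 in RTOC, and Hoxb5 14.3 and 11.3 in 2D culture and 28.2 and 47.3 in RTOC. Hoxa2 was further from background, with 53.0 and 61.7 in 2D culture and 217.7 and 207.8 in RTOC.

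**Figure D3:**
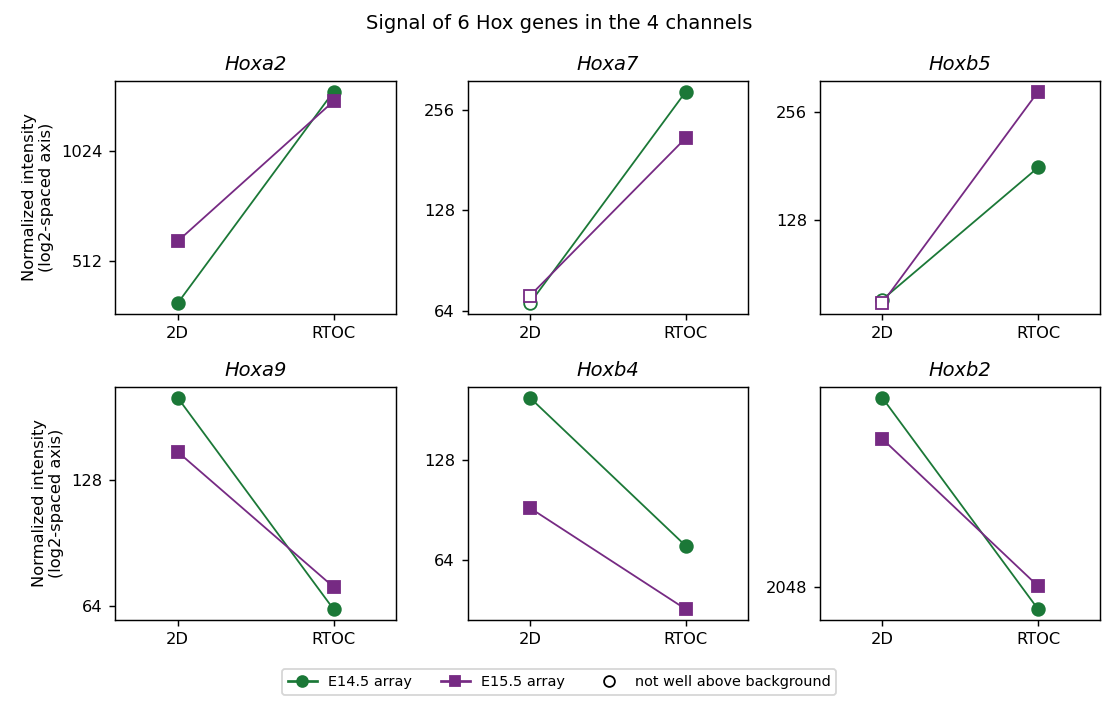
Normalized intensity (vertical axis, log2-spaced, its own range in each panel) of the 5 Hox genes that passed the threshold and of Hoxb2 in 2D culture and RTOC. Green circles are the E14.5 array, purple squares the E15.5 array, and open symbols mark channels not well above background, which occur for Hoxa7 and Hoxb5 in 2D culture. The lines rise on both arrays for the upper 3 genes and fall on both for the lower 3.

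The probes of Hoxa9 and Hoxb4 overlap the homeobox, where Hox genes resemble each other most, and that of Hoxb4 runs on past its end. A search of the reading frames for a few short runs of homeodomain residues found 10 of the 47 Hox probes. Of these, 3 were tested, those of Hoxa9, Hoxb3 and Hoxb4. Other probes may also overlap the homeobox, since probe positions in the transcripts were not known. The 60-base probe of Hoxb4 is shown because both genes that were lower are read by probes that include this conserved stretch, and the capitals mark the codons for Arg-Arg-Met-Lys of the helix that contacts DNA.
Hoxb4: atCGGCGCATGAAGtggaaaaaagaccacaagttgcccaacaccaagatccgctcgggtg

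The third probe of this kind that was tested, that of Hoxb3, had a mean log2 ratio of -0.15, against -1.38 for Hoxa9 and -1.25 for Hoxb4. Whether a probe also read the RNA of another Hox gene was not tested. Among the 11 tested genes whose probe was not found by the search for homeodomain residues, 3 were higher and none lower. At an unadjusted p under 0.05 in limma, 1 was lower. Over all tested genes, 15.4% were called higher and 12.7% lower. Hoxa7 and Hoxb5, which are among the 3, entered the test only through their RTOC channels. The split by probe was chosen after seeing the data, so no conclusion is drawn from it.

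The remaining 9 tested genes did not pass the threshold. Hoxb2, which patterns the hindbrain and the neural crest derived from it, had intensities of 3608 (E14.5) and 3190 (E15.5) in 2D culture and 1915 and 2052 in RTOC. Both RTOC values were lower, and the mean log2 ratio of -0.78 ± 0.20 (SD, n = 2) had an adjusted p of 0.0737 in limma. A fit with a variance trend and robust estimation gave an adjusted p of 0.0420 for Hoxb2. A second Hoxb2 probe, much closer to background, gave -0.28.

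Hoxd8 had intensities of 120.7 (E14.5) and 48.4 (E15.5) in 2D culture and 178.3 and 161.6 in RTOC. Both RTOC values were higher, but the arrays differed in size, with log2 ratios of 0.56 and 1.74, and the mean of 1.15 ± 0.83 (SD, n = 2) had an adjusted p of 0.0614 in limma. The E15.5 2D value, which sets the larger ratio, was not well above background, and with normexp and loess the mean was 0.23 (adjusted p = 0.250). Hoxd8 passed when the log ratios were centred on the median (adjusted p = 0.0201) and in the log ratios as deposited (adjusted p = 0.0405). Hoxb7 had intensities of 69.0 and 49.9 in 2D culture, not well above background, and 111.2 and 78.0 in RTOC. Its 2 arrays agreed closely, at 0.69 and 0.65, with an adjusted p of 0.0997 in limma, and it passed under median centring alone (adjusted p = 0.0353). After normexp, loess and scaling, the estimate for Hoxb7 was 1.03-fold higher in RTOC and did not pass (adjusted p = 0.828 in limma).

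The mean log2 ratios of the others lay between -0.61 and 0.56. Hoxd4 had intensities of 182.1 (E14.5) and 206 (E15.5) in 2D culture and 101.2 and 159.9 in RTOC, with a mean of -0.61 ± 0.34 (SD, n = 2). Both RTOC values were lower than both 2D values, and no share over all genes is given for this. The mean signal minus background of Hoxd4, before dye normalization, was 29.1 and 25.6 scanner units in 2D culture and 21.6 and 26.4 in RTOC. On that scale the E15.5 RTOC value was not below the 2D value. With normexp and loess the mean log2 ratio of Hoxd4 was -0.16 (adjusted p = 0.405 in limma). Hoxb6 had a mean of 0.56 ± 0.42, Hoxc4 of 0.38 ± 0.03, Hoxa4 of 0.24 ± 0.12 and Hoxb3 of -0.15 ± 0.13. Hoxb3 turned to 0.09 under median centring, which moves the median of all tested genes to 0.15.

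In the paralogue groups detected throughout, the ratios differed in sign between members. In group 2, Hoxa2 rose and the mean log2 ratio of Hoxb2 was -0.78, which did not pass. In group 4, Hoxb4 fell, and the mean log2 ratios of Hoxd4, Hoxa4 and Hoxc4 were -0.61, 0.24 and 0.38, none of which passed the threshold. Along the HoxB cluster, Hoxb2, Hoxb3 and Hoxb4 had negative ratios on both arrays and Hoxb5, Hoxb6 and Hoxb7 positive ones. Hoxb5 and Hoxb7 were tested only through their RTOC channels. Only Hoxb4 and Hoxb5 of the 6 passed the threshold, and Hoxb3 changed sign under median centring. In HoxA, Hoxa2, Hoxa4 and Hoxa7 were positive and Hoxa9 negative. The differences between Hox genes were not themselves tested.

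**Figure D4:**
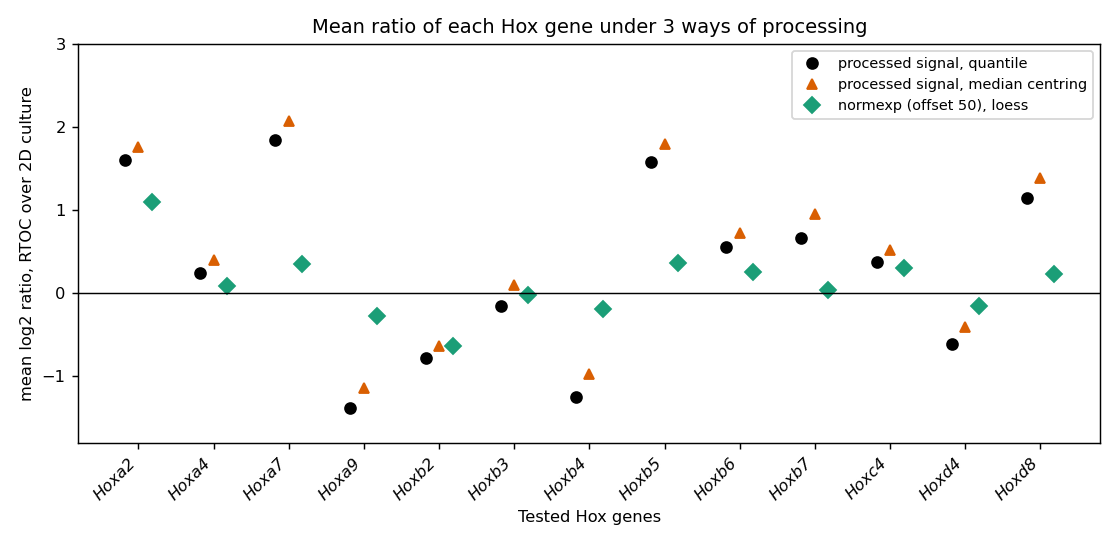
Mean log2 ratio of RTOC over 2D culture (vertical axis) for 13 of the 14 tested Hox genes with processed signals and quantile normalization (black circles), processed signals with median centring (orange triangles), and normexp with loess (green diamonds). Hoxa2 and Hoxb2 keep most of their ratio with normexp, while the dim genes Hoxa7, Hoxa9, Hoxb4, Hoxb5 and Hoxb7 come close to 0.

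Genes whose products act with or on Hox genes were read beside the same shares over all tested genes, 15.4% called higher and 12.7% called lower. Of 10 TALE genes tested, Pbx3 was higher (mean log2 ratio 1.03), and Pbx4, Tgif1 and Meis3 were lower (-1.91, -1.85 and -1.45). Tgif1 belongs to the TALE class but not to the Pbx and Meis families of cofactors. Pbx4 and Meis3 were well above background in RTOC on 1 of the 2 arrays, and with normexp and loess they did not pass. This left 1 TALE gene higher, Pbx3, and 1 lower, Tgif1. Meis1 and Meis2, with means of 0.35 and 0.40, were among the 6 that did not pass. Of 17 genes tested in the Polycomb list, 6 were higher and none lower in limma, with 7 higher and 0 lower at an unadjusted p under 0.05. The counts were the same with normexp and loess and under median centring. Without a filter on dim probes, 0 of 18 were higher and 0 lower, with 8 and 0 at an unadjusted p under 0.05 in limma. Among the 6 higher genes were Cbx2 (2.00) and Cbx7 (1.49), whose proteins read the repressive histone mark, and Jarid2 (1.78), a partner of the complex that writes it. The complex's core genes Ezh2, Eed and Suz12 had means of 0.11, -0.29 and 0.28 and did not pass. The list, its counts and its median also include Kdm6a and Kdm6b (0.09 and -0.45), whose proteins remove the repressive mark. Neither passed. Of 7 Trithorax genes tested, Psip1 was higher (1.73), while none was lower, with 1 higher and 0 lower at an unadjusted p under 0.05 in limma. Kmt2a and Men1, with means of -0.29 and -0.55, did not pass. The median log2 ratio was 0.24 over TALE, 0.31 over Polycomb and -0.29 over Trithorax genes, beside 0.00 over all tested genes.

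Retinoic acid genes moved in both directions. Cyp26b1, which breaks retinoic acid down, rose from intensities of 1357 (E14.5) and 519.8 (E15.5) in 2D culture to 6687 and 5354 in RTOC, a mean log2 ratio of 2.83. Aldh1a2, the main enzyme of retinoic acid synthesis in the embryo, fell from 3915 and 1325 to 956 and 371.2, a mean of -1.94. Neither gene's groups overlapped, and both passed the threshold in limma (adjusted p of 0.00435 and 0.00569). Both were named for their large changes among the genes past it, so passing follows from that choice. Aldh1a1, another enzyme of synthesis, and the receptor Rxra were higher (1.73 and 1.38), and the receptors Rara and Rarg were lower (-1.35 and -1.10). Rara and Rarg were well above background in RTOC on 1 of the 2 arrays, and with normexp and loess neither passed (-0.18 for both). In all, 3 of 12 tested genes were higher and 3 lower (3 and 1 with normexp and loess), beside 15.4% and 12.7% of all tested genes, and the median was -0.16.

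Of 3 upstream regulators of Hox genes tested, 1 was higher and 1 lower, beside 15.4% and 12.7% of all tested genes. The lower one was Egr2, also known as Krox20, which activates Hoxa2 and Hoxb2 in the hindbrain. Egr2 fell from 22180 and 6872 in 2D culture to 1194 and 1090 in RTOC, a mean log2 ratio of -3.44. It passed the threshold in limma (adjusted p of 0.00454), and both RTOC values were below both 2D values. Of 6 ParaHox genes, the sister cluster to Hox, only Gsx1 was detected, and Cdx1, Cdx2 and Cdx4, whose motif lies before Hoxa7, were at background in every channel.

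**Figure D5:**
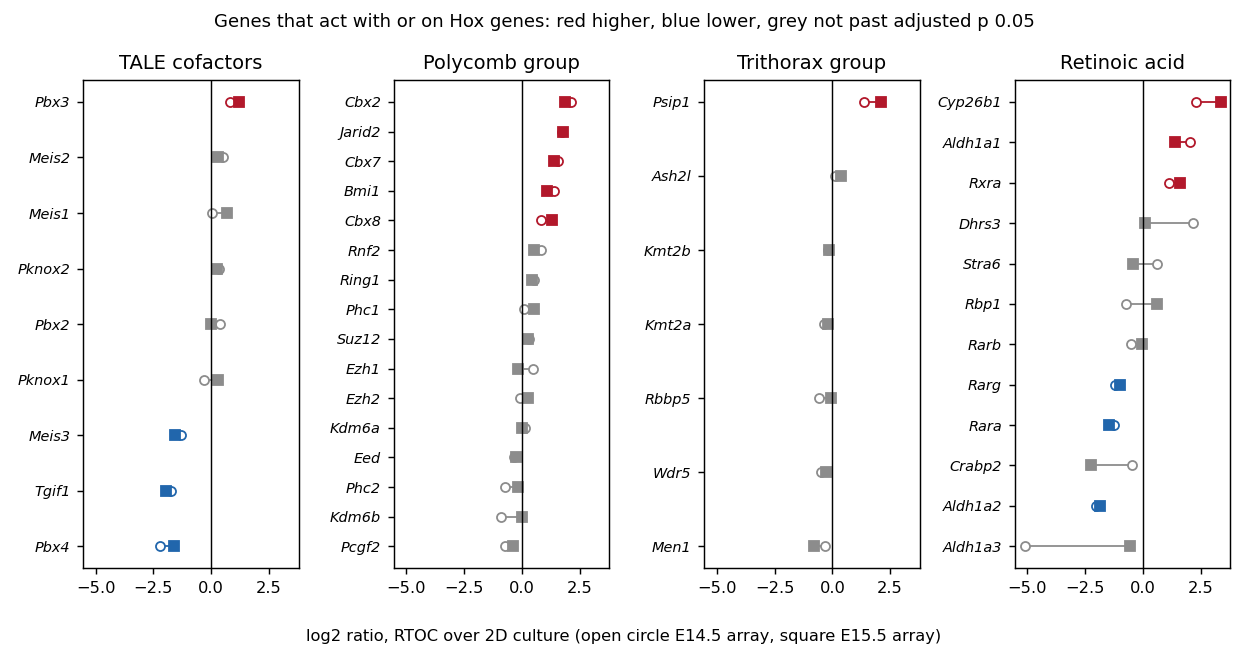
log2 ratio of RTOC over 2D culture (horizontal axis) at E14.5 (open circles) and E15.5 (squares) for tested TALE, Polycomb, Trithorax and retinoic acid genes, ordered by mean. Red and blue mark genes higher and lower past the threshold, with 3 TALE genes lower. The Polycomb panel also holds Kdm6a and Kdm6b, whose proteins remove the repressive mark.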

How the data were processed

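Total RNA of each culture was amplified, labelled and hybridized to a 2-colour Agilent whole mouse genome array (2 arrays on 1 slide and in 1 scan, 1 for each fetal stage). The authors ran Feature Extraction (version 11.5.1.1 per the labels, 9.1.3.1 per the file headers), and the deposited intensity columns are mean signals, background medians and processed signals, which are background-subtracted and dye-normalized within an array. The deposited log10 ratio of Cy5 over Cy3 equals the series value table (largest difference 5e-10), and the deposited software flags mark outlier spots and spots well above background. The methods state quantile normalization of all arrays and no test for them.

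Here, control spots and outlier-flagged spots (5 at E14.5 and 1 at E15.5) were left out, processed signals of the 4 channels were quantile normalized, spots of a probe were averaged, and log2 ratios were tested against 0 with limma 3.58.1 in R 4.3.3 (intercept, eBayes, two-sided, Benjamini-Hochberg over 23692 probes). The 2 arrays leave 1 residual degree of freedom, so the test draws mostly on the spread shared over probes, and an exact sign-flip test of 2 arrays cannot go below p = 0.5. Fold changes are on the scale of processed signals. Each gene was read by its brightest tested probe. Of 41174 probes, 22951 were named by accession, 6659 by symbol and 3109 by an older symbol in a RefSeq table (GRCm38.p6), and 8455 kept the name in the files.

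Hox genes are named, except that some genes and probe sequences are not reported here, although the counts and medians over the Hox genes and the other lists include the genes tested. Of each other list at most the 4 genes with the largest change among those past the threshold, the defining marker of each cell type, and some further members, chosen after their values were seen, are named. The Hox genes and the other lists were chosen with earlier results of these data known. The alternatives tried were normexp with an offset of 50 and loess, with and without scaling between arrays, median centring, the deposited ratios, 2 other filters, outlier spots kept, each array alone, unpaired channels, another eBayes fit, the methods' t-test, another rule for several probes, and 3 other detection rules. The number of arrays limits the precision. The share of probes well above background was 53.1% and 53.5% in 2D culture and 56.4% and 61.0% in RTOC (E14.5 and E15.5). Scripts were tested on simulated data.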

Additional observations from a re-analysis of the deposited data

Results flagged for a closer look

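Of the Hox probes outside the test, 6 carried a signal well above background on 1 array. Hoxa13 was detected in 2 channels, both of the E15.5 array, with normalized intensities of 154.6 in 2D culture and 117.9 in RTOC against 16.5 and 16.2 on the E14.5 array, and its second probe was at background in all channels. Hoxd3 was detected in 2 channels, both of the E14.5 array, at 191 and 163.7 against 28.9 and 33.5 on the E15.5 array, and its second probe was at background too. Hoxb9 was detected in 1 channel, E14.5 2D culture, at 138.6 against 13.02 in RTOC on the same array and 44.95 in E15.5 2D culture. Hoxa6 and Hoxd12 were detected in 1 channel each, E15.5 RTOC, at 57.9 and 53.9. A second probe of Hoxb6 was detected in 1 channel, E15.5 RTOC, at 111, with log2 ratios of -0.77 and 0.50 at E14.5 and E15.5, while its first probe was higher on both. None of these differences was tested.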

How the results depend on the processing

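The signs of the 14 ratios held in every alternative that included the gene, except Hoxb3, which turned from -0.15 to 0.094 under median centring. Several alternatives changed only the test or the filter and left the ratios as they were, so their signs could not change. For Hoxa7, Hoxb5 and Hoxb7 the filter favoured a positive sign, so their signs are not read as a result. The counts of genes called higher and lower (3 and 2) became 1 and 0 with normexp and loess, with or without scaling between arrays, where 2 and 1 had an unadjusted p under 0.05 in limma. They became 5 and 2 under median centring, 0 and 0 without a filter on dim probes (5 and 4 unadjusted in limma, over 37 genes), 1 and 2 with both channels of both arrays required to be well above background, 3 and 1 with no replicate block (the channels unpaired), and 0 and 0 with the methods' t-test, adjusted by Benjamini-Hochberg (2 and 0 unadjusted, limma's count being 5 and 3). Without genes whose probe was found to encode homeodomain letters, an alternative chosen after seeing the data, they were 3 and 0. The median Hox log2 ratio of 0.31 became 0.0676 with normexp and loess, with or without scaling, 0.46 under median centring, -0.16 without a filter, -0.55 with both channels required, 0.56 without the homeodomain probes, and 0.28 to 0.29 with 1 array left out. Genes detected in 2D culture on both arrays numbered 9, but 22 by the looser call and 14 on either array. Counts on a fit without either array have no test. The slide could not be used as a block, since both arrays lie on 1 slide. The cause of these changes was not tested, except that the stricter filter tests fewer genes and the looser one more. The low signal over background limits what can be said of Hoxa7, Hoxa9, Hoxb3, Hoxb4, Hoxb5, Hoxb7, Hoxd4 and Hoxd8. Their ratios were smaller in size with normexp and loess. That setting differs from the main one in background correction, offset and loess at once, so the parts of these steps cannot be told apart.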

Other observations

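Other homeobox and pharyngeal genes of the same cells moved in both directions, with 5 of 14 tested genes higher, 5 lower and a median log2 ratio of -0.03, beside 15.4% of all tested genes called higher and 12.7% called lower. Pax1, which patterns the pharyngeal pouches, had intensities of 8756 (E14.5) and 9393 (E15.5) in 2D culture and 53520 and 60950 in RTOC, a mean log2 ratio of 2.65. Meox2, a gene of mesenchyme, had 95.7 and 63.7 in 2D culture and 518.8 and 399.9 in RTOC, a mean of 2.55. Of the 2D channels, Meox2 was well above background at E14.5 alone. Dlx2, which patterns the pharyngeal arches along the dorsoventral axis, had 2731 and 499 in 2D culture and 279.1 and 166.6 in RTOC, a mean of -2.44. The groups of these 3 genes did not overlap, and all 3 passed the threshold in limma. They were named for their large changes among the genes past it, so passing follows from that choice. No share over all genes is given for the lack of overlap. With normexp and loess 5 genes of the list were higher and 0 lower (5 and 3 at an unadjusted p under 0.05 in limma), and Dlx2, at -1.29, no longer passed.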
